A study of Mus musculus with 45 samples.

Results

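The 56 genes described here are the Wnt pathway genes of the mouse cortex data set: every gene symbol of the deposited tables that names a Wnt ligand, a Frizzled receptor or its co-receptors Lrp5 and Lrp6, a Dkk, Sfrp or Wif1 antagonist, an R-spondin, or one of the intracellular genes Axin1, Axin2, Lef1, the Tcf7 family, Apcdd1, Nkd1, Nkd2, Rnf43 and Znrf3. They were picked by symbol from 53491 genes, with earlier results of these data known. By role they comprised 19 ligands, 4 R-spondins, 12 receptors, 9 secreted antagonists, 8 targets and feedback genes, 3 other intracellular genes and 1 antisense transcript, Fzd10os. SLAM-seq, which reads 4-thiouridine (4sU) in labelled RNA as T-to-C conversions, was applied to primary cortical cells of WT mice at embryonic days E11.5, E14.5 and E16.5. All groups were dissociated, plated in progenitor medium with 10 ng/mL bFGF, given 100 uM 4sU for 20 h and chased with 5 mM uridine for 0, 2, 4, 8 or 12 h. Each of the 3 biological replicates per stage (A, B and C) joined cortices, from 7 embryos for E11.5 and from 2 for each later stage, and was then divided over 5 wells. The cells were therefore cultured mixtures, at least 20 h in culture at 0 h of chase, and not sorted cell types; in such mixtures fewer cells of a type and less RNA per cell cannot be told apart.

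Wnt ligands are secreted lipid-modified proteins that bind Frizzled receptors together with Lrp5 or Lrp6, which leads to accumulation of beta-catenin and to transcription through Tcf and Lef factors. Several direct targets, among them Axin2, Nkd1, Rnf43, Znrf3 and Apcdd1, encode inhibitors of the same pathway and so form negative feedback, while R-spondins act against the receptor-removing ubiquitin ligases Rnf43 and Znrf3. In the embryonic cortex, Wnt signals come in large part from the cortical hem at the medial edge, and the pathway is known for its roles in progenitor expansion and regional patterning.

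The 45 libraries held 228.7 to 629.1 M covered T positions, or 15.9 to 43.9 M reads. Marker sums at 0 h, in cpm (reads of a gene scaled to one library size), followed the stages: 8 radial glia markers summed to 9718 to 10247 at E11.5, 3716 to 4313 at E14.5 and 1496 to 1646 at E16.5, and 8 neuron markers to 1969.6 to 2388, 4492 to 5039 and 7046 to 7519. A set of 10 markers of meningeal and mural cells summed to 470.1 to 709 cpm at E11.5 but to 17.8 to 21.9 and 16.2 to 34.1 at the later stages, and 8 erythroid markers to 1693 to 3746, 42.8 to 61.9 and 27.8 to 62.8. A set of 10 markers of the hem and choroid plexus gave 9.7, 12.6 and 16 cpm in E11.5 replicates A, B and C, 0.913 to 1.52 at E14.5, and 0.533, 317 and 2.14 in E16.5 replicates A, B and C, so that E16.5 replicate B stood apart. Of this set, Lmx1b, Ttr and Msx2 were at 0 in E14.5 replicate A, Msx2 and Folr1 in B, and Lmx1b and Msx1 in C. At E16.5, Ttr, Msx1, Msx2, Folr1 and Otx2 were at 0 in replicate A, Lmx1b and Gdf7 in B, and Lmx1b, Gdf7 and Folr1 in C. The other markers, Lmx1a, Kl and Htr2c, had reads in every library of 0 h at these stages. At E11.5, Htr2c was at 0 in replicates A and B, and Gdf7 in B. The part of these cells in the stage differences of the Wnt genes was not tested.

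Between E11.5 and the later stages, more Wnt pathway genes were called lower than higher. Of the 56 genes, 40 had more than 10 covered Ts in all 9 libraries of 0 h and were tested with edgeR's quasi-likelihood test; a gene was called at an adjusted p under 0.05 over all 18408 genes tested and a log2 fold change beyond 1. From E11.5 to E14.5, 1 member was called higher (Rspo3) and 12 lower, where 8.14% of all genes tested were called higher and 8.0% lower (16.1% in all). From E14.5 to E16.5, 6 members were called higher and 6 lower, against 7.19% and 5.92% of all genes (13.1% in all). Between E11.5 and E16.5, 6 were higher and 17 lower, against 14.7% and 14.6% (29.3% in all). The count of members higher from E11.5 to E14.5 ranged from 1 to 3 when a replicate was left out (3 without E11.5 replicate A or C or E14.5 replicate A, 2 without E11.5 replicate B or E14.5 replicate C). Just under the fold threshold there lay Fzd4 (log2 fold change 0.96 ± 0.15, adjusted p = 1.40e-04) and Tcf7 (0.95 ± 0.19, adjusted p = 0.00101). With glmTreat, which tests against the fold threshold itself, the calls of Fzd10, Wnt5b and Wnt9a in the first step, of Fzd6, Fzd9, Wif1 and Wnt3 in the later step and of Fzd7, Nkd1, Sfrp4 and Tcf7 over the whole interval were lost. Replicates of the pair of stages did not overlap in cpm for 27, 31 and 30 of the 40 members in these comparisons, as for 55.4%, 61.4% and 71.4% of all genes tested. The median log2 fold change over the 40 members was -0.60 from E11.5 to E14.5 and -0.81 from E11.5 to E16.5, where the medians of all genes tested were -0.01 and -0.04. The 3 comparisons share libraries and are not independent of each other. By role, from E11.5 to E16.5, 8 of 12 receptors were called lower and 1 higher, 3 of 8 targets and feedback genes lower and 1 higher, and 3 of 6 tested secreted antagonists in each direction. None of the 7 tested ligands was called in that comparison, although DESeq2 called 1 higher and 1 lower. Of these ligands, 4 had an unadjusted p under 0.05, for which no share over all genes is given. Exons of Axin2, Fzd5, Fzd6, Lef1, Rspo3, Sfrp2, Tcf7l1, Wnt5a, Wnt7b and Wnt11 overlap a gene on the other strand, and whether the counting used strand is not given in the sources used here, so reads of these 10 members may in part belong to the neighbour.

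**Figure D1:**
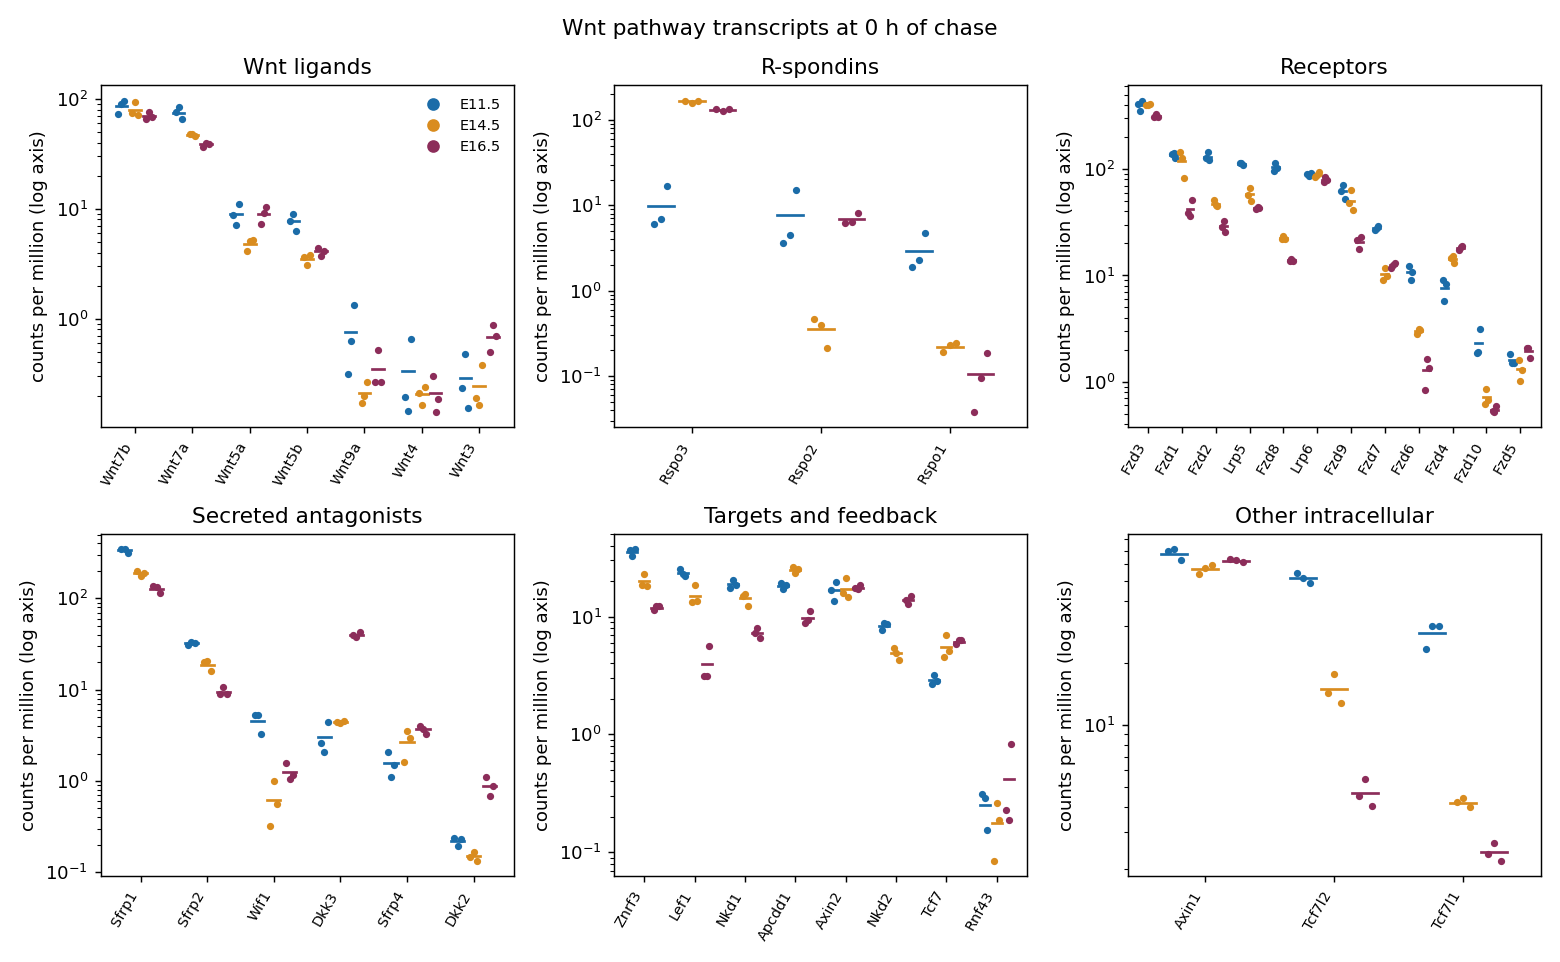
Expression at 0 h of chase for the tested Wnt pathway genes, by role. The vertical axis is cpm on a log axis, each point is a replicate, bars are means of 3 replicates and colours are stages; Rspo3 is the member called higher from E11.5 to E14.5 with all 9 libraries (1 to 3 members when a replicate was left out), and Fzd8, Tcf7l1 and Tcf7l2 stand lower at each later stage.

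Receptors were the role with the most members tested, and 9 of the 12 were called at E16.5 against E11.5. Per kb of annotated exon, the receptors with the highest levels at E11.5 were Fzd2 (35.8 ± 3.28 cpm per kb, SD, n = 3), Fzd1 (32.4 ± 1.97), Fzd3 (31.2 ± 3.61) and Fzd9 (26.9 ± 4.02). At E16.5, Fzd3 (24.7 ± 0.941 cpm per kb) stood above all other receptors. Its cpm were 406, 350.3 and 442 at E11.5, then 398, 404 and 412 (E14.5) and then 311, 331 and 309 (E16.5), and the difference over the whole interval was below the fold threshold. Its log2 fold change was -0.26 ± 0.08 (adjusted p = 0.00924). Fzd3 is known for axon guidance and planar cell polarity. Fzd8, a receptor enriched in forebrain progenitors, was at 95.7, 113 and 102 cpm in E11.5 replicates A, B and C, at 21.95, 23.6 and 22.2 at E14.5 and at 13.8, 14.4 and 13.7 at E16.5. The 3 stages did not overlap, and the fall was called from E11.5 to E14.5 (log2 fold change -2.09 ± 0.08, adjusted p = 6.02e-10; errors of fold changes are SE) and over the whole interval (log2 fold change -2.81 ± 0.08, adjusted p = 2.23e-11). Fzd2 likewise went from 127, 145 and 121 cpm through 51.4, 46.2 and 45.0 to 28.7, 32.4 and 25.9 without overlap, with a log2 fold change of -1.37 ± 0.10 (adjusted p = 1.47e-07) in the first step.

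Fzd1 and Fzd9 were called lower in the later step and not in the earlier one. Fzd1 was at 139, 142 and 127 cpm at E11.5 and at 145, 127 and 81.7 at E14.5, overlapping values, and at 39.0, 36.0 and 51.2 at E16.5. The log2 fold change was -1.53 ± 0.18 for E16.5 against E14.5 (adjusted p = 1.52e-05). Fzd9 showed the same order, with 62.9, 70.2 and 51.9, then 47.5, 63.0 and 41.2, then 21.5, 17.6 and 23.0 cpm. This was a log2 fold change of -1.29 ± 0.15 for E16.5 against E14.5 (adjusted p = 1.12e-05). In contrast, the low-level receptor Fzd6 fell in both steps: its cpm were 12.2, 8.99 and 10.8 at E11.5, then 2.82, 3.13 and 3.06 (E14.5) and then 0.837, 1.64 and 1.36 (E16.5), with log2 fold changes of -1.90 ± 0.24 (adjusted p = 2.98e-05) and -1.11 ± 0.24 (adjusted p = 0.00196); without E16.5 replicate A the second became -0.80 and was not called. Fzd7 fell once, from 26.6, 28.0 and 29.2 to 9.06, 11.8 and 9.93 cpm (log2 fold change -1.42 ± 0.11, adjusted p = 3.31e-07), and was at 11.9, 12.7 and 13.2 at E16.5. Fzd10 was at 1.88, 1.92 and 3.11 cpm at E11.5, at 0.616, 0.857 and 0.671 at E14.5 (log2 fold change -1.51 ± 0.28, adjusted p = 6.75e-04) and at 0.533, 0.521 and 0.588 at E16.5. In the 12 h libraries the first-step fall of Fzd10 was -0.86 and the fall of Fzd9 over the whole interval -0.88, neither of them called.

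Fzd4, best known as the Norrin receptor of blood vessels, was the receptor called higher at E16.5 against E11.5. It had 9.04, 5.77 and 8.23 cpm at E11.5, then 14.46, 15.3 and 13.2 (E14.5) and then 17.3, 18.6 and 19.0 (E16.5). Its stages did not overlap, and E16.5 against E11.5 gave a log2 fold change of 1.32 ± 0.15 (adjusted p = 4.40e-06). In the 12 h libraries it was 0.80 and under the fold threshold. The summed level of 9 endothelial markers, of which 4 to 8 had more than 10 reads in a library, came to 122 to 127 cpm at E11.5, 125 to 153 at E14.5 and 76.8 to 91.7 at E16.5, and of 8 tested 1 was called higher and 1 lower at E16.5 against E11.5. Their part in the Fzd4 difference was not tested. The co-receptors differed from each other. Lrp5 fell from 115, 114 and 109.7 cpm through 57.3, 66.1 and 50.6 to 42.3, 43.9 and 43.3 (log2 fold change -1.31 ± 0.09, adjusted p = 4.75e-08, E16.5 against E11.5), whereas Lrp6 was at 90.8, 86.3 and 92.5, then 84.4, 88.7 and 93.0, then 75.6, 83.8 and 79.5 cpm with a log2 fold change of -0.10 ± 0.06 (adjusted p = 0.183). Fzd5 lay between 1.02 and 2.09 cpm in all 9 libraries and was not called.

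Among ligands, 12 of 19 were below the filter, and Wnt1 was listed at 0 reads in all 9 libraries of 0 h. The ligands with the highest levels per kb at E11.5 were Wnt7a (23.7 ± 2.79 cpm per kb) and Wnt7b (17.6 ± 2.56), which are expressed in cortical progenitors and neurons. Wnt7b did not pass the test at any step, with 72.4, 90.2 and 96.6 cpm at E11.5, then 73.7, 92.7 and 71.4 (E14.5) and then 65.6, 75.8 and 68.2 (E16.5). Over the whole interval it differed by a log2 fold change of -0.26 ± 0.12 (adjusted p = 0.0811). Wnt7a went from 75.6, 83.8 and 66.1 through 47.9, 48.2 and 45.6 to 36.6, 40.1 and 39.2 cpm without overlap, a difference past the p threshold but under the fold threshold. edgeR gave it a log2 fold change of -0.89 ± 0.08 for E16.5 against E11.5 (adjusted p = 7.72e-07). Wnt5a, a ligand of beta-catenin-independent signalling, was lowest at E14.5: its cpm were 8.84, 7.12 and 11.1 at E11.5, then 4.12, 5.11 and 5.23 (E14.5) and then 7.31, 9.10 and 10.3 (E16.5), with log2 fold changes of -0.89 ± 0.18 and 0.92 ± 0.18 for the steps, which stayed under the fold threshold. Its relative Wnt5b was called lower at E14.5, at 3.63, 3.07 and 3.84 against 7.78, 8.99 and 6.31 cpm (log2 fold change -1.02 ± 0.17, adjusted p = 2.14e-04); it was at 4.41, 3.72 and 4.17 at E16.5. Leaving out E11.5 replicate B or E14.5 replicate B brought the Wnt5b fold change to -0.89 or -0.92, under the threshold, and in the 12 h libraries it was -0.67.

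Wnt3a and Wnt8b, ligands of the cortical hem, were found at E11.5 and were at or near 0 later. Wnt3a was at 1.06, 1.39 and 1.69 cpm at E11.5, had 0 reads in all 3 replicates at E14.5 and 0, 0 and 1 read at E16.5. Wnt8b was at 8.64, 5.96 and 16.6 cpm at E11.5, had 0 reads in each replicate at E14.5, and at E16.5 had 0 reads in replicates A and B and 22 in replicate C. Set against a floor of 3 reads per library, Wnt3a was at least 17.0-fold higher at E11.5 than at E14.5 and Wnt8b at least 129-fold (floors cover counting error only). Neither passed the filter on low counts; without it, edgeR gave adjusted p = 4.05e-06 for Wnt3a and 4.46e-06 for Wnt8b. Of the low-level ligands that were tested, Wnt9a was at 0.313, 0.625 and 1.35 cpm at E11.5 and 0.170, 0.198 and 0.268 at E14.5 (log2 fold change -2.02 ± 0.53, adjusted p = 0.00661), with 0.266, 0.521 and 0.267 at E16.5. The Wnt9a call was lost in the 12 h libraries (log2 fold change -0.96, adjusted p = 0.135) and with glmTreat (adjusted p = 0.113). Wnt3 was at 0.235, 0.481 and 0.154 cpm at E11.5, then 0.191, 0.165 and 0.376 (E14.5) and then 0.495, 0.877 and 0.694 (E16.5). The later step gave a log2 fold change of 1.40 ± 0.53 (adjusted p = 0.0424), a call that was lost without E11.5 replicate A, E14.5 replicate A or B, or E16.5 replicate B or C (adjusted p = 0.0502 to 0.137). Wnt4 was under 1 cpm in all 9 libraries.

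R-spondins, secreted enhancers of Wnt signalling that bind Lgr receptors, gave the 3 largest fold changes of all members tested from E11.5 to E14.5. Rspo3 (chr10:29452416-29535867, GRCm38, minus strand) was at 6.10, 6.88 and 16.7 cpm in E11.5 replicates A, B and C, at 169, 159 and 167 at E14.5 and at 134, 128 and 133 at E16.5. All later values lay above those of E11.5, with a log2 fold change of 4.08 ± 0.30 (adjusted p = 1.99e-07) in the first step. Per kb of exon, Rspo3 reached 53.3 ± 1.71 cpm at E14.5, above every other member at that stage. Rspo2 took another course: 3.60, 4.42 and 15.03 cpm at E11.5, then 0.467, 0.396 and 0.215 (E14.5) and then 6.16, 6.38 and 8.04 (E16.5), with log2 fold changes of -4.26 ± 0.52 (adjusted p = 2.07e-05) and then 4.15 ± 0.52 (adjusted p = 2.93e-05). Rspo1 was at 1.88, 2.26 and 4.69 cpm, then 0.191, 0.231 and 0.242 and last 0.0381, 0.0948 and 0.187, with its fall called in the first step. The change on the log2 scale was -3.78 ± 0.49 for E14.5 against E11.5 (adjusted p = 2.99e-05). Rspo1 had only 7 to 9 reads per library at E14.5 and 1 to 7 at E16.5, and Rspo2 had 8 to 22 at E14.5. The sizes of their fold changes therefore rest on few reads. Neither gene was tested under the alternative that set a minimum of reads, rather than of covered Ts, in every library. Rspo4 was at or below 0.1 cpm throughout. E11.5 replicate C was the highest of its stage for Rspo1, Rspo2, Rspo3 and Wnt8b, as for the hem and the erythroid markers; without it the first-step log2 fold changes were 4.68 for Rspo3, -3.25 for Rspo2 and -3.33 for Rspo1, all still called.

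**Figure D2:**
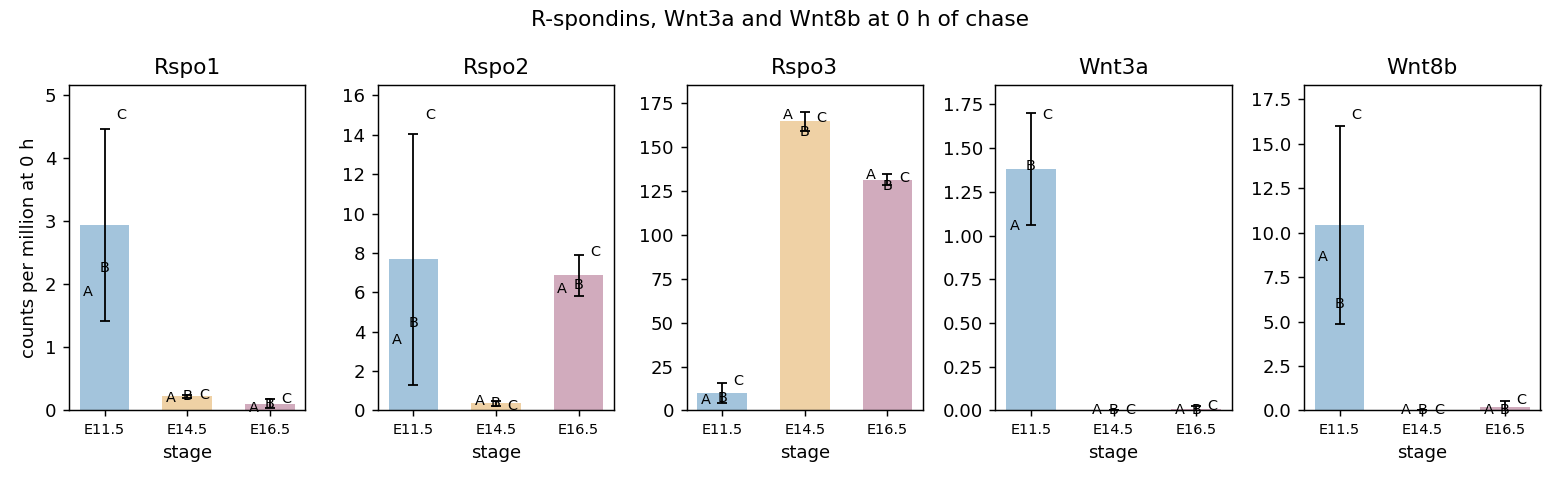
Level (cpm) at 0 h of chase for Rspo1, Rspo2, Rspo3, Wnt3a and Wnt8b at each stage. Bars are means and error bars SD of 3 replicates, letters mark the replicates, and each panel has its own axis from 0; replicate C is the highest E11.5 value in all 5 panels.

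Secreted antagonists moved in both directions. Sfrp1, a Frizzled-related protein of progenitors, had the highest level per kb of all members at E11.5 (76.6 ± 3.87 cpm per kb) and fell from 344, 345 and 315 cpm through 201, 176 and 191 to 135, 134 and 115 (log2 fold change -1.32 ± 0.08, adjusted p = 1.02e-08, E16.5 against E11.5). Its relative Sfrp2 also fell, from 30.6, 33.0 and 32.8 through 19.9, 20.6 and 15.9 to 8.87, 10.6 and 9.0 cpm. Its log2 fold change was -1.67 ± 0.11 for E16.5 against E11.5 (adjusted p = 3.56e-08). Dkk3, a divergent member of the Dickkopf family, was at 2.58, 2.07 and 4.38 cpm at E11.5, then 4.39, 4.35 and 4.51 (E14.5) and then 40.2, 37.7 and 42.5 (E16.5), so that its rise came in the later step. The log2 fold change was 3.18 ± 0.21 for E16.5 against E14.5 (adjusted p = 1.79e-07). Dkk2, a ligand of Lrp5 and Lrp6, had 0.235, 0.192 and 0.231 cpm at E11.5, then 0.149, 0.165 and 0.134 (E14.5) and then 1.104, 0.687 and 0.881 (E16.5). This was a log2 fold change of 2.70 ± 0.34 for E16.5 against E14.5 (adjusted p = 3.28e-05). Dkk2 had only 4 to 6 reads per library at E11.5, 5 to 7 at E14.5 and 29 to 33 at E16.5. It was therefore not tested where more than 10 reads were required in every library. Sfrp4 was at 2.07, 1.11 and 1.50 cpm at E11.5, then 1.61, 3.50 and 2.98 (E14.5) and then 4.03, 3.72 and 3.31 (E16.5), which was called over the whole interval. edgeR gave it a log2 fold change of 1.34 ± 0.28 for E16.5 against E11.5 (adjusted p = 9.29e-04), but 0.63 in the 12 h libraries, where it was not called. Wif1, which binds Wnt proteins in the extracellular space, was at 5.24, 5.29 and 3.27 cpm at E11.5, then 0.318, 0.989 and 0.564 (E14.5) and then 1.56, 1.04 and 1.18 (E16.5), with a log2 fold change of -2.93 ± 0.33 (adjusted p = 9.64e-06) and then 1.13 ± 0.31 (adjusted p = 0.00911). Without E14.5 replicate A the later rise of Wif1 was 0.84 and not called. Dkk4 was listed at 0 in all 9 libraries, and Dkk1 and Sfrp5 stayed under 0.5 cpm.

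Of the 8 target and feedback genes, none was called between E11.5 and E14.5 by edgeR or DESeq2, where edgeR called 16.1% of all genes tested. With so few genes, this count lies near that share. In edgeR, 6 of the 8 had an unadjusted p under 0.05, for which no share over all genes is given. Axin2, the most widely used readout of beta-catenin activity, was at 17.0, 13.7 and 19.8 cpm at E11.5, then 15.99, 21.2 and 14.6 (E14.5) and then 17.4, 17.1 and 18.5 (E16.5). Its stages overlapped, and its log2 fold changes were 0.06 ± 0.16 (adjusted p = 0.794) and 0.04 ± 0.16 (adjusted p = 0.834). Lef1, a nuclear effector that is itself a target, went from 25.4, 22.9 and 22.1 through 13.3, 18.5 and 13.5 to 3.12, 3.10 and 5.63 cpm, with its call in the later step. The change on the log2 scale was -1.93 ± 0.20 for E16.5 against E14.5 (adjusted p = 5.70e-06). Tcf7, its close relative, went the other way, at 2.70, 3.17 and 2.85 cpm at E11.5, then 4.56, 7.02 and 5.07 (E14.5) and then 5.82, 6.28 and 6.28 (E16.5). Its log2 fold change was 1.13 ± 0.19 for E16.5 against E11.5 (adjusted p = 1.64e-04). Apcdd1, a membrane-bound inhibitor, was highest at E14.5: 19.1, 17.3 and 18.5 cpm at E11.5, then 26.6, 23.3 and 25.4 (E14.5) and then 8.75, 9.41 and 11.2 (E16.5). The log2 fold change was -1.33 ± 0.11 for the later step (adjusted p = 8.53e-07).

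Nkd1 and Nkd2, the Naked cuticle genes, which inhibit Dishevelled, diverged. The first fell from 17.5, 20.4 and 18.6 through 14.99, 15.6 and 12.2 to 7.27, 7.96 and 6.57 cpm. This was a log2 fold change of -1.25 ± 0.13 for E16.5 against E11.5 (adjusted p = 2.29e-06). Nkd2 was at 7.75, 8.80 and 8.57 cpm at E11.5, then 5.39, 4.91 and 4.32 (E14.5) and then 13.7, 12.8 and 14.98 (E16.5), the highest. edgeR gave it a log2 fold change of 1.51 ± 0.13 for E16.5 against E14.5 (adjusted p = 9.24e-07), which in the 12 h libraries was 0.87 and under the fold threshold. Of the ubiquitin ligases that clear Frizzled from the surface, Znrf3 fell from 36.8, 32.5 and 37.3 through 18.4, 23.1 and 18.1 to 11.3, 12.3 and 12.3 cpm (log2 fold change -1.48 ± 0.10, adjusted p = 4.67e-08, E16.5 against E11.5), and Rnf43 stayed under 1 cpm in all 9 libraries with no call. Larger falls were measured for the Tcf factors that can act as repressors. Tcf7l1 was at 23.2, 30.01 and 30.03 cpm at E11.5, then 4.20, 4.39 and 3.97 (E14.5) and then 2.36, 2.65 and 2.19 (E16.5). The change on the log2 scale was -3.48 ± 0.14 for E16.5 against E11.5 (adjusted p = 2.82e-10). Tcf7l2 was at 54.6, 51.5 and 48.9 cpm at E11.5, then 14.2, 17.7 and 12.8 (E14.5) and then 4.53, 5.47 and 4.03 (E16.5). Its log2 fold change was -3.35 ± 0.17 for E16.5 against E11.5 (adjusted p = 2.03e-09). Axin1, the scaffold of the destruction complex, was at 69.4, 71.0 and 62.7 cpm at E11.5, then 53.6, 57.3 and 59.3 (E14.5) and then 63.7, 62.8 and 61.4 (E16.5). Over the whole interval its log2 fold change was -0.04 ± 0.07 (adjusted p = 0.657). Of the 8 radial glia markers, 7 were called lower and 1 higher at E16.5 against E11.5; their part in these falls was not tested.

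Other genes of the pathway, in 3 lists, served as context. Of 24 core genes (Dishevelled, Gsk3, Apc, beta-catenin and partners), 4 were called higher and 1 lower from E11.5 to E16.5, where 14.7% of all genes tested were called higher and 14.6% lower (29.3% in all). The called ones were Tle2 (log2 fold change 2.12 ± 0.21, adjusted p = 1.18e-06), Apc2 (1.86 ± 0.08, adjusted p = 3.71e-10), Pygo1 (1.44 ± 0.07, adjusted p = 8.05e-10), Bcl9l (1.25 ± 0.09, adjusted p = 9.75e-08) and Tle4 (-1.24 ± 0.08, adjusted p = 2.97e-08). Tle genes encode Groucho-type corepressors and Pygo1 and Bcl9l bind the beta-catenin complex. Of 25 genes that act at or outside the cell surface, 23 were tested, 4 were called higher and 9 lower. The largest changes were in Sostdc1, a secreted antagonist (4.87 ± 0.45, adjusted p = 6.95e-07), Gpc3, a heparan sulfate proteoglycan (-3.69 ± 0.47, adjusted p = 1.28e-05), Prickle2 (3.58 ± 0.20, adjusted p = 4.54e-09), a planar polarity gene, Frzb (-3.46 ± 0.14, adjusted p = 3.72e-10), another Frizzled-related antagonist, and Prickle1 (3.04 ± 0.12, adjusted p = 2.10e-10). Of 14 further target genes, 8 were tested, 2 were higher and 5 lower, led by Neurog1 (-4.10 ± 0.50, adjusted p = 9.72e-06), Id2 (2.04 ± 0.09, adjusted p = 8.17e-10), Ccnd1 (-1.88 ± 0.15, adjusted p = 1.18e-07), Emx2 (-1.80 ± 0.06, adjusted p = 1.09e-10) and Sp8 (-1.76 ± 0.09, adjusted p = 2.72e-09). The median log2 fold changes of the lists were 0.37, -0.67 and -1.58, beside -0.04 over all genes tested. From E11.5 to E14.5 these lists had 2, 3 and 2 genes called higher and 0, 8 and 1 called lower, and from E14.5 to E16.5 they had 1, 3 and 0 higher and 0, 4 and 2 lower. Of all genes, 8.14% were higher and 8.0% lower in the first of these comparisons and 7.19% and 5.92% in the second.

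To compare decay, half-lives were refitted from the conversion rates of each replicate. A half-life was used at a stage if each of its 3 replicates had over 500 covered Ts at every chase time, a value under 24 h and a fit with R2 over 0.6. This left 26 members at E11.5, 25 at E14.5, 28 at E16.5 and 23 with values throughout, while 22 of the 27 members without any half-life failed on coverage alone at every stage. Wnt pathway transcripts were mostly short-lived. At E11.5, 21 of 26 members lay below the median of all transcripts measured at that stage (4.43 h), at E14.5 23 of 25 (4.6 h), and at E16.5 22 of 28 (3.48 h). The members' own medians were 3.71, 2.93 and 2.36 h. Of the 23 members, 20 had a shorter mean half-life at E16.5 than at E11.5, as had 90.1% of the 9505 transcripts measured at all stages.

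Receptor mRNAs had shorter median half-lives than those of targets and feedback genes. Of 9 receptors measured at all stages, 6 (Fzd1, Fzd4, Fzd7, Fzd8, Fzd9 and Lrp6) lay in the shortest-lived 10% of transcripts at every stage, as did 5.18% of all transcripts; of 5 targets and feedback genes, Znrf3 alone did. In E11.5 replicates A, B and C the median half-life was 2.59, 2.94 and 2.18 h over the 9 receptors and 4.599, 4.37 and 3.96 h over the 5 targets and feedback genes. These medians were 2.34, 2.52 and 3.05 h against 3.74, 3.19 and 3.54 h in the E14.5 replicates. In the E16.5 replicates they were 2.03, 1.88 and 1.81 h against 2.22, 2.49 and 2.43 h. The target median was the higher in all 9 replicates, by 1.74 ± 0.292 h (SD, n = 3) at E11.5, then 0.854 ± 0.481 h and last 0.472 ± 0.244 h. Genes of a class are not replicates, so these differences carry no test. They depended on the coverage, the fit quality and the chase times required: with more than 2000 covered Ts required, Znrf3 was the 1 target left beside 9 receptors and the differences became -0.34, -0.23 and -0.14 h. With R2 over 0.8 required (3 targets, 7 receptors) they were 0.67, 0.30 and 0.043 h, and fitted from 2 h on (1 target, 4 receptors) the E11.5 difference was 1.22 h and the E16.5 difference -0.20 h.

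**Figure D3:**
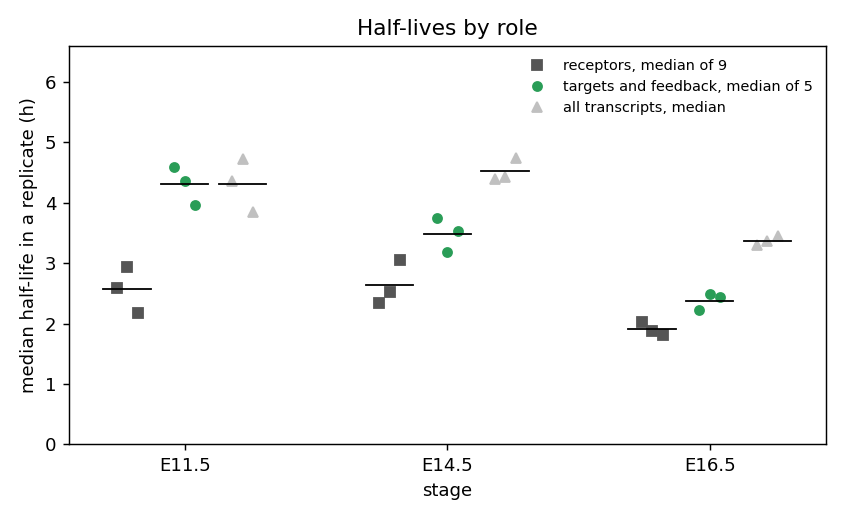
Median half-life in each replicate over 9 receptors (squares), 5 targets and feedback genes (circles) and the 9505 transcripts measured at all stages (triangles), with lines at the mean of 3 replicates. The circles lie above the squares at each stage, and the gap narrows from 1.74 h at E11.5 to 0.472 h at E16.5.

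Below, half-lives are given for replicates A, B and C at E11.5, then E14.5, then E16.5. Fzd8 had the shortest mean of the 23 members, at 1.88, 2.24 and 1.32 h, then 1.48, 1.37 and 2.63 h, then 1.57, 1.29 and 1.20 h. These means placed it at percentile 0.451, 0.487 and 0.422 of all transcripts, and its stages overlapped. Fzd4 came next, at 0.881, 3.12 and 2.04 h, then 2.34, 2.19 and 1.77 h, then 1.50, 1.33 and 1.50 h. Its spread at E11.5 was wide. Covered Ts of Fzd4 at 0 h were 2026 to 3958 at that stage, and their part in the spread was not tested. Fzd1 had 3.33, 2.94 and 1.90 h, then 2.25, 2.01 and 2.37 h, then 1.37, 1.55 and 1.41 h, without overlap between E16.5 and the earlier stages. Fzd7 was at 2.09, 2.58 and 2.19 h, then 1.76, 2.24 and 3.13 h, then 2.05, 1.89 and 1.81 h. The remaining short-lived Frizzled gene, Fzd9, was at 2.34, 2.27 and 1.79 h, then 2.33, 2.52 and 2.34 h, then 2.03, 1.88 and 2.07 h. Fzd3, Fzd2 and Lrp5 were longer-lived. Fzd3 was at 3.55, 3.98 and 3.34 h, then 3.45, 3.85 and 4.03 h, then 2.40, 2.38 and 2.50 h, lower at E16.5 than in any earlier replicate. Fzd2 was at 3.90, 4.84 and 2.42 h, then 2.47, 2.60 and 3.35 h, then 5.50, 2.90 and 4.48 h, with overlap throughout. Lrp5 and Lrp6 serve the same receptor complex, yet their replicates did not overlap at any stage. Lrp5 was at 4.04, 4.88 and 3.46 h, then 4.74, 3.87 and 6.26 h, then 2.23, 2.81 and 3.24 h. Lrp6 was at 2.59, 2.92 and 2.18 h, then 2.44, 2.77 and 3.05 h, then 1.86, 1.83 and 1.75 h, the shorter-lived of the pair at each stage.

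Targets and feedback genes ranged widely. Nkd1 had the half-lives 5.75, 8.01 and 5.26 h, then 3.74, 3.63 and 5.70 h, then 2.85, 6.95 and 4.45 h, with overlap between the outer stages. Nkd2 had 8.07, 4.37 and 9.91 h, then 4.28, 4.58 and 3.92 h, then 2.59, 4.07 and 4.24 h, and all 3 values at E16.5 lay below those at E11.5. Lef1 had 2.51, 6.63 and 3.96 h, then 5.95, 3.19 and 3.54 h, then 2.22, 2.49 and 2.19 h, lowest in all replicates of the last stage. Apcdd1 had 4.599, 3.72 and 3.46 h, then 3.51, 2.70 and 2.59 h, then 1.45, 1.90 and 2.43 h, again with the last stage below the others. Znrf3 means lay within the range of the 6 short-lived receptors, with 2.21, 2.96 and 1.52 h, then 2.65, 2.21 and 2.38 h, then 1.76, 1.86 and 1.67 h. Axin2 passed at the later stages, with 2.45 ± 0.332 h and 2.53 ± 0.547 h (mean ± SD, n = 3), and Tcf7 at the last, with 1.75 ± 0.454 h. Of the other intracellular genes, Axin1 had 4.12, 3.93 and 3.05 h, then 3.50, 2.88 and 3.19 h, then 2.07, 1.93 and 1.99 h, and its E16.5 values lay below all earlier ones. Tcf7l2 had 2.61, 2.67 and 2.35 h, then 2.79, 3.18 and 2.19 h, then 2.62, 4.05 and 1.78 h, with overlap between the stages. Tcf7l1 passed at E11.5 (5.70 ± 1.82 h) and E16.5 (3.98 ± 0.708 h).

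Among ligands, Wnt7a and Wnt7b differed at each stage without overlap of their replicates. Wnt7a was at 2.39, 2.56 and 1.87 h, then 2.12, 1.93 and 2.55 h, then 1.95, 1.96 and 2.14 h. Wnt7b was the longer-lived, at 4.32, 5.12 and 3.81 h, then 4.39, 4.52 and 4.44 h, then 3.38, 3.10 and 3.16 h. Wnt5a, at 3.05, 5.03 and 3.62 h, then 3.03, 2.12 and 2.87 h, then 1.74, 3.34 and 3.48 h, overlapped at each stage with its relative Wnt5b. Wnt5b was at 4.04, 3.68 and 2.61 h, then 5.37, 2.34 and 5.00 h, then 3.61, 0.955 and 2.29 h. The antagonists Sfrp1 and Sfrp2 had means above the member median at each stage. Sfrp1 was at 4.54, 4.65 and 3.96 h, then 4.74, 4.40 and 4.89 h, then 3.90, 4.12 and 3.59 h. Sfrp2 was at 4.20, 4.23 and 3.62 h, then 4.21, 4.37 and 4.94 h, then 6.65, 3.88 and 3.81 h, and in both genes E11.5 and E16.5 overlapped. Dkk3 passed at E14.5 (3.85 ± 0.386 h) and E16.5 (3.19 ± 0.238 h), Rspo2 at E11.5 (5.47 ± 2.81 h) and E16.5 (2.60 ± 0.106 h), and Fzd6 at E11.5 (3.65 ± 1.36 h).

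**Figure D4:**
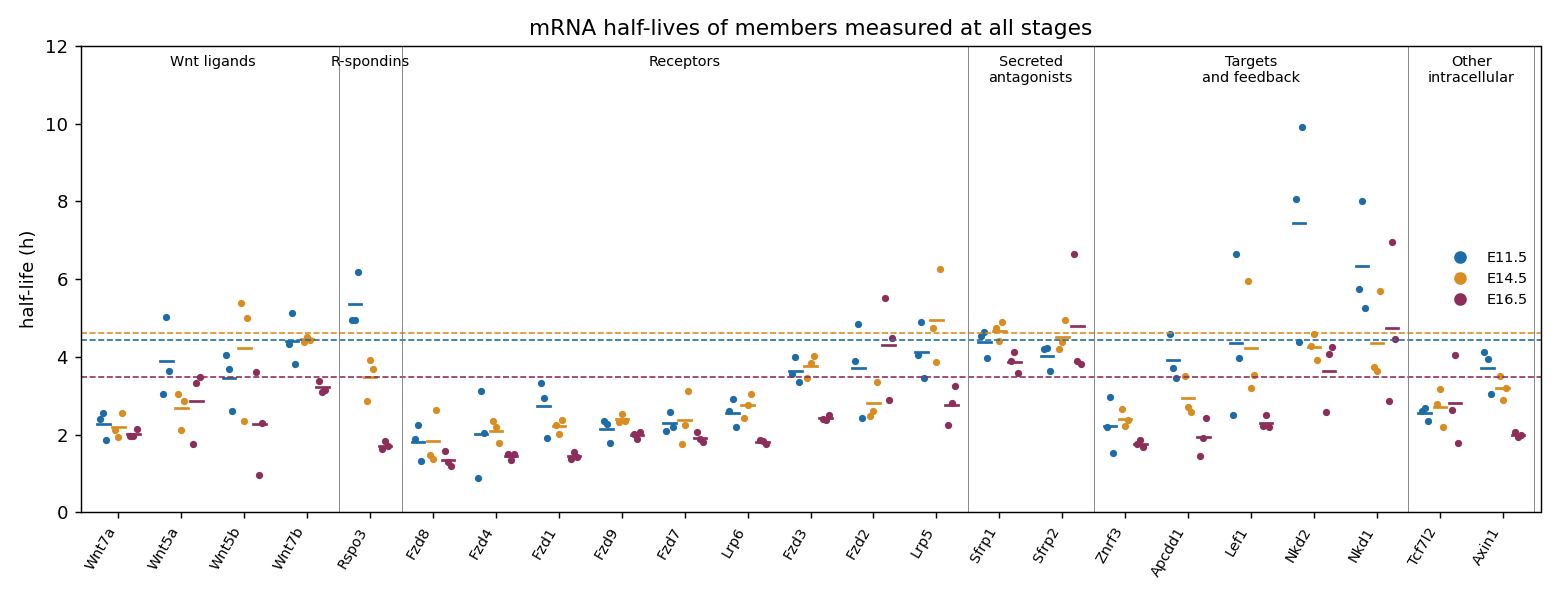
Half-lives in hours of the 23 members measured at all stages, grouped by role. Points are replicates, short bars the means of 3, colours the stages and dashed lines the median of all transcripts measured at a stage; 6 of 9 receptors lie near the bottom of the axis at every stage, and Rspo3 falls from 5.36 h to 1.71 h.

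Rspo3 was the one member of the 23 whose half-lives did not overlap between any stages. Its half-lives were 4.96, 4.95 and 6.18 h in E11.5 replicates A, B and C, then 2.87, 3.91 and 3.69 h (E14.5) and then 1.63, 1.82 and 1.69 h (E16.5), and its percentile among all transcripts went from 71.2 through 20.8 to 3.54. The share of all transcripts without overlap between any stages is not given. In hours, 90.1% of those measured at all stages were shorter at E16.5 than at E11.5. For a comparison relative to all other transcripts, the half-lives of each replicate were turned into z-scores and tested with limma. Across the 3 stages no member passed limma's F-test at an adjusted p under 0.05 (3.15% of 9505 transcripts did). Of the 23 members, 4 had an unadjusted F-test p under 0.05 (share over all transcripts not given), with the lowest value for Rspo3 (limma adjusted p = 0.0704). In the contrast of E16.5 with E11.5, Rspo3 was the 1 member called shorter (difference -1.58 ± 0.33 SD units, limma adjusted p = 0.0372), where 1.71% of transcripts were called shorter and 2.99% longer. Its call was lost with the lowest conversion rates taken as background (adjusted p = 0.0532), with the replicate letter as a block (adjusted p = 0.0701), and without E11.5 replicate A, any E14.5 replicate or any E16.5 replicate (adjusted p = 0.0527 to 0.114). At E11.5, Rspo3 carried little label: its conversion rate was 0.716% ± 0.0718 at 0 h and 0.193% ± 0.0314 at 12 h of chase, against 2.44% ± 0.0613 and 0.147% ± 0.0107 at E16.5 (SD, n = 3). The median transcript had 1.18% at 0 h at E11.5 and 1.84% at E16.5. Covered Ts of Rspo3 at 0 h were 2171 to 6617 at E11.5 and 52802 to 81431 at E16.5. Its level also fell over the E16.5 chase, by a log2 fold change of -0.36 ± 0.05 (edgeR adjusted p = 0.00111). The part of label, depth and this fall in the shorter half-life was not tested.

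Short-lived mRNAs often carry AU-rich elements in the 3' untranslated region, built on the pentamer ATTTA; the longer core TTATTTATT is bound by decay factors. Across the 23 members, the number of ATTTA pentamers in the 3' UTR of the longest coding isoform went with a shorter mean half-life (Spearman's rho -0.54, and -0.31 over 8698 transcripts; genes are not independent replicates). UTR length gave rho -0.31 and -0.29. Receptors had a median of 7 pentamers, targets and feedback genes of 3, and all transcripts of 2. Per kb of 3' UTR, however, these medians were 2.09, 2.05 and 1.42, and the rho with half-life was -0.41 over the members and -0.20 over all transcripts. The TTATTTATT core, searched on the transcript strand, was present in 3 of the 23 members (13.0%), Fzd4, Wnt5a and Apcdd1, and in 8.51% of all transcripts, so 1 of the 6 short-lived receptors held it. Sites are shown for the short-lived Fzd4 and for Wnt5a, and for Dkk3 as an antagonist that rose and holds the core, from GENCODE release 21 on GRCm38, with the core in capitals; a match is a description and not a shown decay element.
Fzd4, chr7:89409977-89410006, plus strand: gcaacttcagTTATTTATTgattcatgctt
Wnt5a, chr14:28527382-28527411, plus strand: gagataaagaTTATTTATTtttgttcatat
Dkk3, chr7:112116287-112116316, minus strand: ctttccctgaTTATTTATTctggaacccca

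At the other end of the genes, the Tcf/Lef motif CTTTGAT (reverse complement ATCAAAG, both strands) was searched in RefSeq promoters of GRCm38.p6, from 250 bases before to 50 after the start. The motif was in 1225 of 32851 promoters (3.73%) and in 2 of 45 member promoters, which cover 36 members. None of 11 promoters of 6 targets and feedback genes held it, which says only that these letters are not in this window. The matches were in Wnt5b, which was called lower at E14.5, and in Wnt11, which was under 1 cpm, and are shown with the motif in capitals, 5' to 3' on the gene's strand.
Wnt5b, chr6:119449439-119449468, minus strand: agtaagtctctCTTTGATctgctccctgtc
Wnt11, chr7:98835050-98835079, plus strand: gacgtgggcggATCAAAGcgacggtccgcg

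Decay is read most simply where levels hold steady during the chase, so 12 h was compared with 0 h within each stage with edgeR. Of 43 tested members, 0 were called higher and 1 lower at E11.5; of 40 at E14.5, 1 higher and 1 lower; and of 41 at E16.5, 2 higher and 0 lower. In these comparisons 16, 20 and 10 members had an unadjusted p under 0.05, for which no share over all genes is given. DESeq2 called 0 and 2, 1 and 1, and 2 and 0 members higher and lower. Over all genes, 1.32% were called higher and 2.36% lower at E11.5, 0.676% and 1.31% at E14.5, and 0.625% and 2.0% at E16.5. Wif1 (chr10:121033960-121100650, GRCm38, plus strand) moved in opposite directions: from 5.24, 5.29 and 3.27 to 1.09, 0.850 and 1.05 cpm at E11.5 (log2 fold change -2.03 ± 0.21, adjusted p = 2.06e-04), but from 1.56, 1.04 and 1.18 to 2.79, 2.43 and 3.82 cpm at E16.5 (log2 fold change 1.29 ± 0.21, adjusted p = 0.00198). The values of 0 h and 12 h did not overlap at either stage. At E14.5, Wif1 went from 0.318, 0.989 and 0.564 to 0.240, 0.271 and 0.457 cpm and was not called. Rnf43 rose at E16.5, from 0.228, 0.190 and 0.828 to 1.00, 1.05 and 1.89 cpm (log2 fold change 1.81 ± 0.58, adjusted p = 0.0442), a call lost without E16.5 replicate A or B. At E14.5, Fzd10 rose from 0.616, 0.857 and 0.671 to 1.68, 1.79 and 2.21 cpm (log2 fold change 1.35 ± 0.26, adjusted p = 0.00820), a call lost without E14.5 replicate C, and Fzd6 fell from 2.82, 3.13 and 3.06 to 0.720, 2.25 and 1.45 cpm (log2 fold change -1.01 ± 0.29, adjusted p = 0.0444), a call lost without E14.5 replicate A or C. With the pool as a block, Wnt3a was also called lower at E11.5 (log2 fold change -1.19, adjusted p = 0.00345) and Fzd6 at E16.5 (-1.06, adjusted p = 0.00390), which gave 2 and 1 members called lower. Axin2, Lef1 and the 9 receptors with half-lives at all stages were not called in any of these comparisons, but not all of them held steady. With an adjusted p under 0.05 below the fold threshold, Fzd9 rose by 0.78 at E14.5 and 0.77 at E16.5 on the log2 scale, Lrp5 by 0.34, 0.50 and 0.19 at the 3 stages and Axin2 by 0.67 at E14.5. Fzd8 changed by -0.48 at E11.5 and -0.52 at E14.5, and Fzd1 by -0.46 and Lef1 by -0.34 at E11.5. By the same criteria, other members with half-lives at all stages also drifted. Rspo3 changed by -0.36 and Axin1 by -0.16 at E16.5, and Tcf7l2 by -0.68 at E11.5 and -0.54 at E14.5. Sfrp2 rose by 0.32, 0.45 and 0.37 at the 3 stages and Wnt7b by 0.69 at E14.5 and 0.39 at E16.5. Nkd2 rose by 0.53 at E14.5 and Wnt7a by 0.33 at E11.5. These drifts come from the fit without the pool. With the pool as a block, further members had an adjusted p under 0.05, so members not listed above did not all hold steady. Among them, Fzd4 rose by 0.41 at E11.5, and Fzd2 by 0.32 and Fzd7 by 0.36 at E14.5. Axin2 rose by 0.33 at E11.5, and Apcdd1 by 0.26 at E11.5 and 0.36 at E14.5. Lef1 changed by -0.46 at E14.5 and -0.57 at E16.5.

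**Figure D5:**
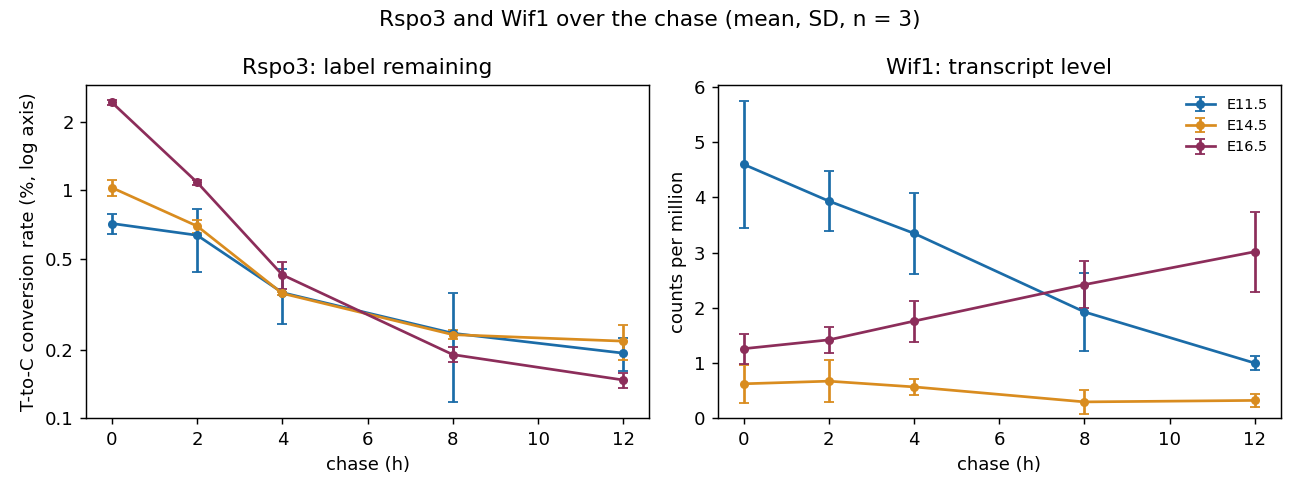
Left, the T-to-C conversion rate of Rspo3 in percent (log axis) over hours of chase at each stage; right, the level of Wif1 in cpm over the same chase. Points are means and error bars SD of 3 replicates; Rspo3 label starts higher and falls faster at E16.5 than at E11.5, and Wif1 falls at E11.5 while it rises at E16.5.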

How the data were processed

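SLAM-seq libraries of cultured cortical cells were analysed from 9 deposited tables, 1 per stage and replicate, each with 5 chase times. The authors aligned reads and called T-to-C conversions with SlamDunk v0.4.3 on mm10 with GENCODE M24 exons. Deposited counts are T positions covered by reads per gene, so that 1 read adds several. The conversion rate is a fraction of converted over covered Ts, as deposited. Deposited CPM values are reads scaled by library total, and 100% of them were whole multiples of 1 read (tolerance 0.01). The half-life column that the authors deposited was used only to check the refit.

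Members, roles and the pathway and marker lists were chosen with earlier results of these data known. Expression was tested on covered-T counts with edgeR 4.0.16 (R 4.3.3, TMM, quasi-likelihood, more than 10 covered Ts in every library of the fit) over all genes. Genes were called where the p adjusted after Benjamini-Hochberg was under 0.05 and the log2 fold change exceeded 1 in size. Stage comparisons used the 9 libraries of 0 h, and chase comparisons the 6 libraries of a stage at 0 and 12 h. Levels between genes were set per kb of merged exons of GENCODE M21 (51678 of 53491 symbols matched, and 55 of 56 members). Half-lives came from least squares fits of an exponential to rates over the rate at 0 h, and limma 3.58.1 compared z-scores of 9505 transcripts. The stage comparison of expression, the half-life fit and limma's F-test were tested on simulated data, but the chase and interaction fits were not. Members called between stages or with half-lives at all stages are given with each replicate's values, and of called pathway genes up to 5 with the largest change per list for E16.5 against E11.5. Whether pools of a stage were cultured on separate days is not given in the sources used here, so p-values measure the spread between these pools.

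Alternatives were DESeq2 1.42.0, RLE factors, no filter, more than 10 reads in every library, recovered reads, glmTreat, 12 h libraries, the replicate letter as a block, and each replicate left out. For half-lives they were over 2000 covered Ts, R2 over 0.8, background subtracted (the lowest percentile of rates at 12 h), a fit from 2 h on, and hours without z-scores. On recovered reads edgeR tested 14611 genes and called 2003, 1648 and 3942 (E14.5 against E11.5, E16.5 against E14.5, E16.5 against E11.5), against 2971, 2414 and 5388 of 18408. The letters pair wells of one pool within a stage, as the methods state: deviations from the group mean at 0 h and 12 h correlated at 0.28 to 0.68 for equal letters, and at -0.17 to 0.21 between stages, where pools differ. Libraries held 228.7 to 629.1 M covered Ts (median 473.2 M). Bounds and floors of 3 reads cover counting error only.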

Additional observations from a re-analysis of the deposited data

Results flagged for a closer look

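The chase changed the level of Wif1, a secreted Wnt antagonist, differently at the 2 outer stages, and the interaction was tested in one edgeR fit across all genes. The 12 h against 0 h change was 3.31 log2 units higher at E16.5 than at E11.5 (SE 0.51, adjusted p = 5.83e-04); all 3 replicates fell at E11.5 and all 3 rose at E16.5. Against E14.5, the change at E16.5 was 2.17 higher (SE 0.51, adjusted p = 0.0765), which did not pass the threshold. Other members passed the same test with smaller differences. For E16.5 against E11.5 they were Fzd8 (0.58, adjusted p = 0.00242), Wnt7b (0.56, adjusted p = 0.0473) and Dkk3 (-0.83, adjusted p = 0.0468). Fzd8 also passed for E16.5 against E14.5 (0.67, adjusted p = 0.00645) and Wnt7b for E14.5 against E11.5 (0.83, adjusted p = 0.00562). The share of all genes that passed is not given, so these members are not set apart from other genes. No fold threshold was applied here, and the fit did not include the pool. Reads of Wif1 at 0 h were 85 to 134 per library at E11.5 and 41 to 44 at E16.5. Radial glia markers summed to 9718 to 10247 cpm at 0 h and 7380.0 to 8637 at 12 h at E11.5, and to 1496 to 1646 and 1793 to 1905 at E16.5; their part in the result was not tested.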

How the results depend on the processing

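Each stage and chase comparison was recomputed under the alternatives named in the processing section. The results followed were the 54 calls made with the main settings, so calls gained under an alternative are not among the values counted next. Members that an alternative did not test, for example below its filter, are left out of them too, so losses of that kind do not show there. Of 860 values for single members over 54 results, 810 kept their direction and their side of the threshold, 49 kept their direction but were no longer called, and 1 reversed: Wif1 at E16.5 against E11.5 was -1.79 in the libraries of 0 h and 1.52 in those of 12 h. For E14.5 against E11.5, the number of members called higher was 1, rose to 2 in the 12 h libraries, and ranged from 1 to 3 when 1 replicate was left out (3 without E11.5 replicate A or C or E14.5 replicate A, 2 without E11.5 replicate B or E14.5 replicate C). For E16.5 against E14.5, 6 members were called higher, but 3 with more than 10 reads required in every library, and 3 on recovered reads, where fewer low-level members entered the test. For 12 h against 0 h, the member called lower at E11.5 became 2 with DESeq2. The E14.5 call of a higher member went to 0 with glmTreat, and ranged from 0 (without E14.5 replicate C) to 1. That of a lower member went to 0 on recovered reads and with glmTreat, and ranged from 0 (without E14.5 replicate A or C) to 1. At E16.5 the 2 calls of higher members became 1 with more than 10 reads in every library, 1 on recovered reads and 0 with glmTreat, and ranged from 1 (without E16.5 replicate A or B) to 2.

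Within a stage, wells with one letter came from the same pool, and the pool as a replicate block gave 2 members called lower at E11.5 in place of 1 and 1 at E16.5 in place of 0. Between stages the letters name unrelated pools. As a block they gave 5 higher and 7 lower members for E16.5 against E14.5 in place of 6 and 6, and left no member with a shorter relative half-life, 0 in place of 1.

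Members called across stages by relative half-life numbered 0, but 5 in hours without z-scores, and 0 to 1 when a replicate was left out (1 without E11.5 replicate C). The single member with a shorter relative half-life at E16.5 became 0 with over 2000 covered Ts, 0 with background subtracted, 0 fitted from 2 h on and 4 in hours, and ranged from 0 to 1 without a replicate (0 without E11.5 replicate A and without each E14.5 or E16.5 replicate). Values in hours are not relative to other transcripts, and 90.1% of the 9505 transcripts were shorter at E16.5 than at E11.5. The share of all transcripts called in hours is not given. The excess of the target median over the receptor median was 1.74 h at E11.5, but -0.34 h with over 2000 covered Ts (1 target, 9 receptors), 0.67 h with R2 over 0.8 (3 and 7) and 1.22 h fitted from 2 h on (1 and 4). At E14.5 it was 0.85 h, but -0.23 h and 0.30 h under the first and second of these. At E16.5 it was 0.47 h, but -0.14, 0.043 and -0.20 h under all 3, in this order. Depth limited what could be measured: 16 of 56 members were below the count filter, and 22 of the 27 members without a half-life failed on coverage alone. The causes were not tested beyond the number of genes each alternative kept.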
